A study of Mus musculus with 30 samples.

Results

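The Dlk1-Dio3 domain is an imprinted stretch of mouse chromosome 12, and its genes were followed across all 30 expression arrays of a study of endoderm made from stem cells. Members were the listed genes of the domain that have a probe set on the array, which is a group of short probes summarised to 1 value. Of 49 listed genes, 47 had a probe set, and Mir493 and Mir758 had none that names them. These genes were read by 48 of the 23410 probe sets that carry a gene symbol, since Rian was read by 2. Among the 48 were 42 for microRNA genes, and 3 named more than 1 gene, namely Mir433 with 6430411K18Rik, AF357355 with Rian, and Mirg with Mir410.

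Imprinted genes are read from the copy inherited from 1 parent. In this domain the paternal copy gives the protein-coding genes Dlk1, a Notch-related membrane protein, Rtl1, a retrotransposon-derived gene needed in the placenta, and Dio3, which inactivates thyroid hormone. The maternal copy gives long noncoding RNAs, Meg3, Rian and Mirg, which hold small nucleolar RNAs and a very large microRNA cluster. A methylated region between Dlk1 and Meg3 keeps the parental copies apart. In mouse iPS cells, body cells returned to a pluripotent state, the maternal RNAs are known to be silent in some clones and active in others.

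The study set iPS-derived and ES-derived endoderm side by side and added endoderm of the embryo. The unamplified arrays, 18 in all, held the iPS clones ST5 and ST8 and embryonic stem (ES) cells, each at day 5 of differentiation, sorted as Kit positive and Sox2 dim, and at day 0, sorted as Sox2 bright. The other 12 arrays held RNA amplified before labelling, from foregut endoderm of E8.25 embryos (positive for the antibody ENDM1 and for Epcam, low side scatter), from Epcam-positive, ENDM1-negative cells of such embryos, and from ES cells at day 5 and at day 0. Each group had 3 biological replicates. The cultured lines were C57BL/6x129SvJae and the embryos Swiss webster, ST5 and ST8 are 1 clone each, and the way they were reprogrammed is not given in the sources used here. Embryo cells and cultured cells therefore differ in strain and in RNA kit as well as in origin.

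Values are log2 expression after RMA, the usual background correction, normalization and summary for these arrays, so that 1 unit is a change by a factor of 2. Levels can be set against each other between arrays of the same labelling, but not between probe sets. The median of all probe sets lay between 5.50 and 5.57 on every unamplified array and between 5.69 and 5.74 on every amplified array. Differentiation showed in the markers: 7 pluripotency genes averaged 5.53 to 7.20 at day 5 and 10.22 to 10.59 at day 0 over the unamplified arrays. Not every gene fell alike. At day 5 Nanog stood at 5.78 to 6.58 in ST5, 6.85 to 9.93 in ST8 and 8.18 to 9.24 in ES cells. Tdgf1 stood at 6.92 to 7.31 in ST5, 7.81 to 11.32 in ST8 and 9.38 to 11.21 in ES cells. Pou5f1 was uneven too, while Dppa5a, Esrrb, Fbxo15 and Zfp42 fell far in every line. Zfp42 was already lower in the clones than in ES cells at day 0, at 7.90 against 9.26. That difference of -1.36 ± 0.23 (SE) passed the test used below, and those of the other genes in this list did not. Among the unamplified day 5 arrays, ST8 replicate 2 and ES replicate 1 stood apart from their groups, with means of 9.83 and 9.73 over 7 definitive endoderm genes. The other ST8 and ES arrays of that day had 8.43 to 8.50, and ST5 had 9.60 to 9.72. Every ST5 array lay near these arrays, so line and progress of differentiation were not separated in the day 5 comparisons. Values without ST8 replicate 2 or ES replicate 1 are given beside the main results of day 5. Leaving out ES replicate 1 removes the ES array nearest to ST5, so it does not even out the groups.

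The array reads RNA that contains a microRNA's hairpin, so primary and precursor RNA are measured together and the mature microRNA is not measured on its own. All 42 microRNA members matched a RefSeq entry (GRCm38.p6), with 80 mature sequences and 77 distinct seeds. The microRNAs whose probe sets differed most between iPS clones and ES cells are shown first, by their 3p arm, 5′ to 3′. Capitals mark the seed, bases 2 to 8, which pairs with target RNAs. All lie on the plus strand of chromosome 12 from miR-380-3p (chr12:109711842-109711863) to miR-410-3p (chr12:109743764-109743784).
miR-380-3p: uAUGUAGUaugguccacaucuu
miR-329-3p: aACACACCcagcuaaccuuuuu
miR-300-3p: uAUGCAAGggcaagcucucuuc
miR-382-3p: uCAUUCACggacaacacuuuuu
miR-377-3p: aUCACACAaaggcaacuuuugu
miR-410-3p: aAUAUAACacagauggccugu

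The next set lies closer to Meg3, in the RNA that runs antisense to Rtl1, and is shown because these microRNAs match the Rtl1 message they face. It reaches from miR-431-3p (chr12:109590502-109590523, plus strand) to miR-136-3p (chr12:109595366-109595387, plus strand).
miR-431-3p: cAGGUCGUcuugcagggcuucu
miR-433-3p: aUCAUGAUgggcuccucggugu
miR-127-3p: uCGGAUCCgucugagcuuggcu
miR-434-3p: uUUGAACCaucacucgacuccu
miR-136-3p: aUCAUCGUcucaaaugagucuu

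Among the 80 mature sequences matched, 3 seeds were shared by those of 2 genes each. These pairs are shown because members of a pair can meet the same targets. Apart from them every seed belonged to 1 of the matched sequences. These held only 1 arm of Mir376c, Mir487b, Mir539 and Mir485 and none of Mir493 and Mir758, so further shared seeds are possible.
miR-379-3p: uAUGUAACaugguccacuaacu
miR-411-3p: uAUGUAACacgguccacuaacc
miR-410-5p: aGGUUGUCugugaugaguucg
miR-494-5p: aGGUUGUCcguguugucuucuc
miR-376b-5p: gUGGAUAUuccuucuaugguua
miR-376c-5p: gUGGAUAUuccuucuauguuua

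Meg3 is the first RNA of the maternal unit, and the stretch at its start is shown because every maternal RNA lies downstream of it. The window runs from 250 bases before to 50 after the RefSeq start (GRCm38.p6, chr12:109540746-109541045, plus strand).
Meg3 promoter: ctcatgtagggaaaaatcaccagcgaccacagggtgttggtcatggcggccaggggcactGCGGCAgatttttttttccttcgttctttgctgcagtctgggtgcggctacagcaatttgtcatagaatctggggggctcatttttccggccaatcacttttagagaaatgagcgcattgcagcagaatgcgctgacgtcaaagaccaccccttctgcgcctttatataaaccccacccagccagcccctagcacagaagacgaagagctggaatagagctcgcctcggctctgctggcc
Capitals mark GCGGCA, the reverse complement of TGCCGC. These letters, searched on both strands, are the core of the motif of ZFP57, a zinc finger protein that keeps imprints in mouse cells, and 11.6% of the 32851 promoter windows in the table hold them. The window had 13 CpG sites, against a median of 7.0 over all windows, and 53.7% of its bases were G or C. The windows of Dlk1, Mirg, Rian and Dio3 and a second Meg3 start had no match, with 9, 10, 0, 25 and 1 CpG sites. A match is a description of letters, and no binding was measured.

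In undifferentiated cells, the maternally read RNAs of the domain were lower in the iPS clones than in ES cells, from Meg3 to Mirg. Meg3, the long noncoding RNA that opens the unit, had 7.59, 7.58 and 7.50 in ST5 and 7.52, 7.57 and 7.76 in ST8, against 10.26, 10.14 and 10.33 in ES cells. Rian, which hosts small nucleolar RNAs, had 4.06, 4.17 and 4.24 in ST5 and 4.56, 3.79 and 4.27 in ST8, against 7.84, 7.83 and 7.88 in ES cells. The clones lay near each other and far below ES cells, with no overlap for either RNA. The differences, as the mean of both clones minus ES cells, were -2.65 ± 0.09 for Meg3 (SE, adjusted p = 1.82e-11) and -3.67 ± 0.13 for Rian (adjusted p = 8.21e-11), by limma with Benjamini-Hochberg adjustment over the 23410 probe sets.

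A second Rian probe set, shared with the small nucleolar RNA AF357355, averaged 4.33 ± 0.21 in ST5 and 4.37 ± 0.04 in ST8, against 8.49 ± 0.11 in ES cells (SD, n = 3 each). Its difference of -4.14 ± 0.11 (SE, adjusted p = 1.99e-12) was the widest of the 48. Of the transcripts of the domain that were not listed members, 3 were measured, and these small nucleolar RNA copies, DQ267102, DQ267101 and AF357341, were lower by -3.40 ± 0.09, -2.57 ± 0.16 and -0.72 ± 0.14 (adjusted p = 1.99e-12, 5.14e-08 and 0.00698). Such copies repeat nearly the same sequence many times, so how their signal divides among them is uncertain.

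Across the domain at day 0, 43 of 48 probe sets passed the test (adjusted p under 0.05) and were lower in the clones, and 0 were higher. Over all probe sets 2.77% were called lower, 2.44% higher and 5.21% in either direction. The median difference was -0.89 over the members and -0.01 over all probe sets. On 45 of 48 every clone array lay below every ES array, against 7.07% of all probe sets. Since these are sorted bulk samples, fewer cells holding an RNA and less of it per cell cannot be told apart.

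The microRNA genes were lower along with their hosts: 39 of 42 passed and were lower in the clones. Over all 42 the differences ran between -3.28 and -0.08, with a median of -0.89. Mir380 had 2.42, 2.71 and 2.42 in ST5 and 2.67, 2.68 and 2.63 in ST8, against 6.01, 5.55 and 6.03 in ES cells. Mirg with Mir410, at the far end of the cluster, had 2.78, 2.85 and 2.93 in ST5 and 2.94, 2.86 and 3.06 in ST8, against 5.61, 5.82 and 6.00 in ES cells. Neither probe set overlapped between clones and ES cells, and both sat below the array median in the clones and above it in ES cells.

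The 6 largest microRNA differences at day 0 all lay in the block from Mir379 to Mir410. They were -3.28 ± 0.14 for Mir380 (SE, adjusted p = 7.30e-10), -2.91 ± 0.21 for Mirg with Mir410, -2.86 ± 0.22 for Mir382, -2.76 ± 0.18 for Mir300, -2.69 ± 0.27 for Mir377 and -2.53 ± 0.14 for Mir329, whose 3p arms are printed above. In that block 29 of 31 were lower, with a median of -1.28. Between Meg3 and Rian 8 of 9 were lower, with a median of -0.70, and inside Rian both Mir341 and Mir370 were, by -0.44 ± 0.07 and -0.47 ± 0.10.

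Among the microRNAs antisense to Rtl1, Mir127 had the widest difference, at 5.27, 5.44 and 5.30 in ST5 and 5.21, 5.19 and 5.24 in ST8, against 6.79, 7.01 and 6.82 in ES cells (-1.60 ± 0.13, adjusted p = 2.42e-06). Mir433, Mir136 and Mir434 were lower by -1.06 ± 0.11, -0.70 ± 0.13 and -0.64 ± 0.09. Mir431, at -0.29 ± 0.09, did not pass (adjusted p = 0.0866), and neither did Mir376c (-0.39 ± 0.12, adjusted p = 0.0899) nor Mir666 (-0.08 ± 0.06, adjusted p = 0.51). In the pairs with a shared seed, Mir410 stood at -2.91 and Mir494 at -0.48, Mir411 at -2.08 and Mir379 at -1.47, and Mir376b at -0.89 and Mir376c at -0.39. These are separate probe sets, several of them dim in the clones, and their differences were not compared.

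Levels of the microRNA genes were low in the clones. Of the 42 microRNA probe sets, 9 lay above the array median in ST5 and 9 in ST8, against 18 in ES cells at day 0, and their median level was 3.18 in ST5 and 3.03 in ST8, against 5.07 in ES cells. In the clones at day 0 Mir376a lay between 1.69 and 1.86 and Mir376c between 1.61 and 1.80.

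The paternally read genes differed by less at day 0. Dlk1 had 6.50, 6.71 and 6.51 in ST5 and 6.37, 6.30 and 6.58 in ST8, against 6.43, 6.56 and 6.66 in ES cells, a difference of -0.06 ± 0.14 (adjusted p = 0.913). Dio3 averaged 4.25 ± 0.08 in ST5 and 4.19 ± 0.09 in ST8, against 4.39 ± 0.08 in ES cells, a difference of -0.17 ± 0.09 (adjusted p = 0.424). Arrays of the groups overlapped for Dlk1. For Dio3 every clone array lay below every ES array, all of them below the array median. Rtl1 averaged 5.41 ± 0.16 in ST5 and 5.18 ± 0.14 in ST8, against 5.66 ± 0.06 in ES cells, and passed at -0.37 ± 0.09 (adjusted p = 0.0255). That call was lost without ES day 0 replicate 1, 2 or 3 (adjusted p = 0.128, 0.0957 and 0.0623) and without ST8 day 0 replicate 2 (0.0525).

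Each clone was also set against ES cells, and since both comparisons use the same ES arrays their values are only given side by side. In ST5 38 of 48 probe sets were lower at day 0 and 0 higher, where 3.32% of all probe sets were called, 1.94% lower and 1.38% higher. In ST8 42 were lower and 0 higher, where 4% were called, 1.85% lower and 2.16% higher. Meg3 differed by -2.68 ± 0.10 in ST5 and -2.62 ± 0.10 in ST8, and Rian by -3.69 in ST5 and -3.64 in ST8. Rtl1 passed in ST8 at -0.48 ± 0.10 (adjusted p = 0.0137) and not in ST5 at -0.25 ± 0.10 (adjusted p = 0.275). Dlk1 had 0.02 in ST5 and -0.13 in ST8, and Dio3 had -0.14 in ST5 and -0.19 in ST8, without passing. Between ST8 and ST5 at day 0, limma called 0 of the 48 (0.132% of all probe sets were called), 2 had an unadjusted p under 0.05, and the differences ran between -0.30 and 0.22, with Meg3 at 0.06 ± 0.10, Rian at 0.05, Dlk1 at -0.15, Rtl1 at -0.23 and Dio3 at -0.06.

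**Figure D1:**
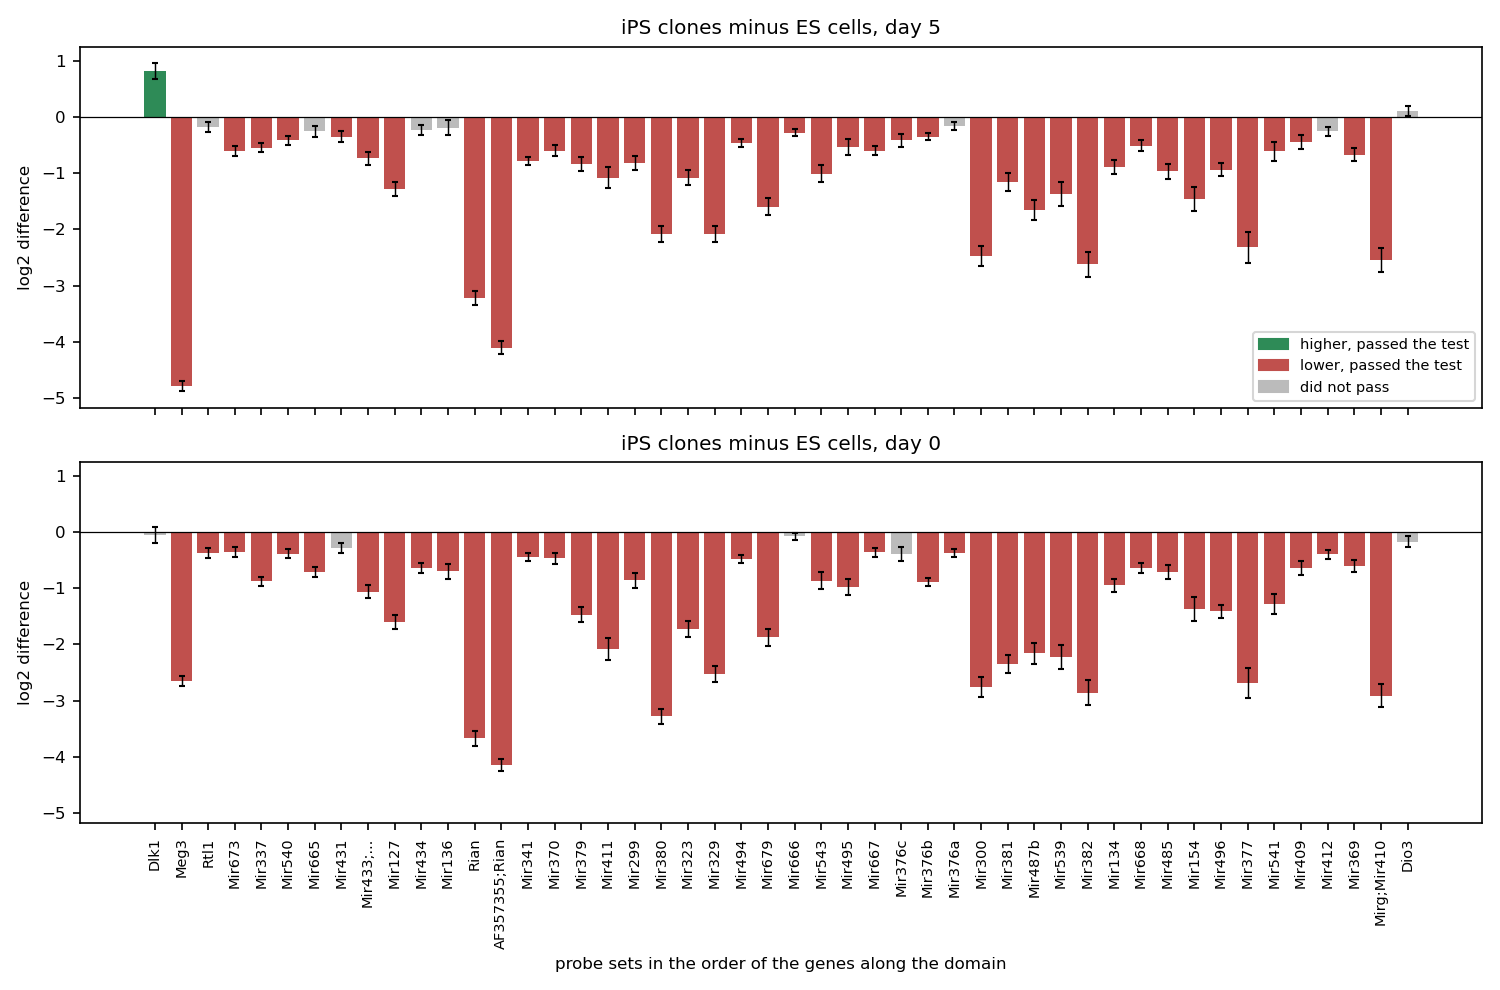
Log2 difference between iPS clones (mean of ST5 and ST8) and ES cells for the 48 probe sets in the order of the genes along the domain, at day 5 (top) and day 0 (bottom). Bars start at 0, error bars are the SE of the fit, and colour marks the outcome of limma's test (red lower, green higher, grey not passed): all bars that passed point down except that of Dlk1 at day 5.

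By day 5, in cells sorted as endoderm, the maternal RNAs stayed lower in the clones and Dlk1 was higher. Meg3 had 5.17, 5.33 and 5.11 in ST5 and 5.07, 5.22 and 5.08 in ST8, against 10.18, 9.76 and 9.91 in ES cells. This put Meg3 below the array median in every clone array and far above it in every ES array. The difference was -4.79 ± 0.09 (SE, adjusted p = 6.43e-15), the widest of the 48 at that day.

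In all, 41 of 48 passed at day 5, 40 lower and 1 higher, where 9.17% of all probe sets were called, 4.49% lower and 4.68% higher. The median over the members was -0.76, against -0.03 over all probe sets. Rian averaged 3.81 ± 0.20 in ST5 and 3.61 ± 0.02 in ST8, against 6.93 ± 0.23 in ES cells (-3.22 ± 0.13, adjusted p = 4.63e-10). Without ES replicate 1 of day 5 the count was 38, with the calls of Mir376c, Mir495 and Mir541 lost (adjusted p = 0.105, 0.0583 and 0.103). Without ST8 replicate 2 it was 40, with that of Mir376c lost (0.0635). Meg3 stood at -4.67 ± 0.08 and Rian at -3.10 ± 0.14 without that ES array.

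Of the microRNA genes 37 of 42 were lower at day 5, and the 6 widest were the same as at day 0: Mir382 (-2.62 ± 0.22), Mirg with Mir410 (-2.55 ± 0.21), Mir300 (-2.47 ± 0.18), Mir377 (-2.32 ± 0.27), Mir380 (-2.08 ± 0.14) and Mir329 (-2.08 ± 0.14). Mir382 had 2.66, 2.69 and 2.85 in ST5 and 2.66, 2.63 and 2.48 in ST8, against 6.20, 4.82 and 4.83 in ES cells. Mir377 had 2.24, 2.22 and 2.55 in ST5 and 2.27, 2.20 and 2.18 in ST8, against 5.79, 4.07 and 3.92 in ES cells. In both, ES replicate 1 stood above the other ES arrays, which themselves did not overlap with the clones. Without it the difference was -1.72 ± 0.09 for Mir377 (adjusted p = 3.3e-08) and -2.16 ± 0.09 for Mir382 (adjusted p = 2.74e-09). It was -2.13 for Mirg with Mir410, -2.21 for Mir300, -1.86 for Mir380 and -1.82 for Mir329.

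Mir127 was lower at day 5 too, by -1.28 ± 0.13 (adjusted p = 6.41e-05), and Mir431 passed at -0.35 ± 0.09 (adjusted p = 0.029). Mir434 (-0.23 ± 0.09), Mir136 (-0.19 ± 0.13), Mir665 (-0.26 ± 0.09), Mir412 (-0.26 ± 0.08) and Mir376a (-0.17 ± 0.07) did not pass. Of the microRNA probe sets, 7 lay above the array median in ST5 and 7 in ST8, against 14 in ES cells.

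Dlk1, the paternally read gene at the other end of the domain from Mirg, had 7.56, 8.07 and 7.91 in ST5 and 7.27, 8.04 and 7.40 in ST8, against 6.88, 6.76 and 7.03 in ES cells. Every clone array lay above every ES array, and ST8 replicate 2 was the highest of its clone. The difference was 0.81 ± 0.14 (SE, adjusted p = 0.00414), and it missed the threshold when only the day 5 groups were fitted (adjusted p = 0.0634). Clone by clone, Dlk1 differed by 0.95 ± 0.17 in ST5 (adjusted p = 0.00164) and 0.67 ± 0.17 in ST8 (adjusted p = 0.0618). Without ST8 replicate 2 the ST8 value was 0.44 ± 0.13 (adjusted p = 0.0653) and without ST8 replicate 1 it passed (adjusted p = 0.0405). For the mean of the clones it was 0.70 ± 0.11 without ST8 replicate 2 and 0.81 ± 0.17 without ES replicate 1 (adjusted p = 0.00136 and 0.00519). Leaving out ES replicate 1 removes the ES array of day 5 with the highest mean of definitive endoderm genes. The part of progress of differentiation in the Dlk1 difference was not tested.

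Rtl1, at -0.18 ± 0.09, and Dio3, at 0.10 ± 0.09, did not pass for the mean of the clones at day 5 (adjusted p = 0.192 and 0.523). Dio3 had 5.01, 5.01 and 4.64 in ST5, 4.20, 4.50 and 4.52 in ST8, and 4.65, 4.61 and 4.39 in ES cells. ST5 and ES cells met at the lower end of ST5, and all 3 groups stood below the array median. In ST8 Dio3 was lower than in ST5 by -0.48 ± 0.11 (adjusted p = 0.0116), the 1 call among 48 between the clones at day 5, where 14.2% of all probe sets were called. That call was lost without ST5 replicate 1 or 2 or ST8 replicate 1 (adjusted p = 0.052, 0.0511 and 0.0701), and Meg3 had -0.08 ± 0.10, Rian -0.20, Dlk1 -0.28 and Rtl1 -0.21 between the clones, without passing. Without ST8 replicate 2 there were 4 calls between the clones, Dlk1 (-0.51, adjusted p = 0.00846) and Rtl1 (-0.32, adjusted p = 0.0289) among them.

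At day 5, 39 of 48 were lower and 2 higher in ST5 than in ES cells, where 23.1% of all probe sets were called, 11.6% lower and 11.5% higher. In ST8 34 were lower and 0 higher, where 1.43% were called, 0.901% lower and 0.525% higher. That count was 5, all lower, when the fit held only ST8 and ES cells of day 5. The shared ES arrays again bar a comparison of these counts. Meg3 differed by -4.75 ± 0.10 in ST5 and by -4.83 ± 0.10 in ST8, Rian by -3.12 in ST5 and -3.32 in ST8. Rtl1 had -0.08 in ST5 and -0.29 in ST8, and Dio3 -0.14 in ST8, without passing. Dio3 in ST5 passed at 0.34 ± 0.11 (adjusted p = 0.0366). It missed the threshold when ES replicate 2 or 3 or ST5 replicate 1 or 2 of day 5 was left out (adjusted p = 0.0718, 0.171, 0.14 and 0.129).

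Visceral endoderm markers moved with line at day 5: Rbp4, Ttr, Apoa1 and Apob, 4 of 8 in the list, were higher in the mean of the clones (1.84 ± 0.35, 1.68 ± 0.25, 1.65 ± 0.30 and 1.20 ± 0.17). Set against ES cells clone by clone, these 4 passed in ST5 and only Apob in ST8 (0.95 ± 0.20, adjusted p = 0.0304). Ttr was lower in ST8 than in ST5 by -2.22 ± 0.29. The mean over the list was 6.65 to 6.85 in ST5 and 5.65 to 6.58 in ST8, against 5.41 to 5.93 in ES cells, while Afp, a defining marker, averaged 3.97 in the clones and 3.94 in ES cells. At day 0, 4 of 7 definitive endoderm genes (Cxcr4, Foxa2, Cer1 and Gsc) were higher in the clones by 1.02 to 1.29, with list means of 6.27 to 6.87 in ST5 and 6.48 to 6.65 in ST8, against 5.59 to 5.81 in ES cells. The part of either in the differences of the domain was not tested.

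**Figure D2:**
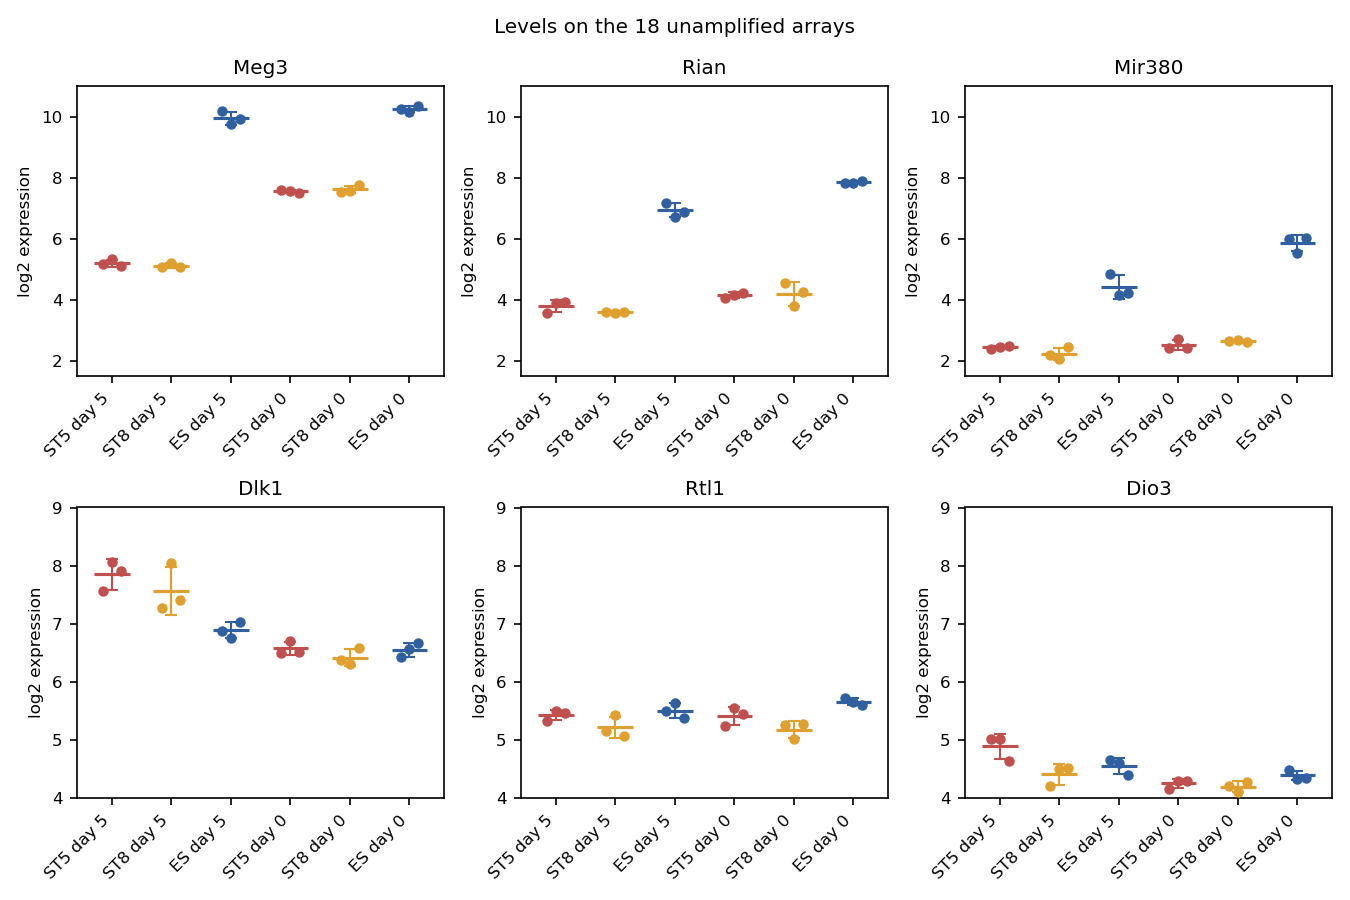
Log2 expression of Meg3, Rian and Mir380 (top) and of Dlk1, Rtl1 and Dio3 (bottom) on the 18 unamplified arrays, with points for arrays, a line for the mean and bars for the SD (n = 3). The top row has the clones below ES cells at both days with no overlap, and in the bottom row, drawn on a narrower axis, Dlk1 at day 5 has every clone array above every ES array.

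The next question was what differentiation did to the domain within each line. In ES cells Meg3 held most of its level, at 10.18, 9.76 and 9.91 at day 5 and 10.26, 10.14 and 10.33 at day 0, with arrays of the days overlapping. In the clones it fell by more than 2 units, and the clone arrays of day 5 did not overlap with those of day 0. The difference between day 5 and day 0 was -2.36 ± 0.10 in ST5 (adjusted p = 3.57e-11) and -2.49 ± 0.10 in ST8 (adjusted p = 1.81e-11), against -0.29 ± 0.10 in ES cells (adjusted p = 0.0284). The ES value passed the test in the fit of all unamplified arrays and was lost without ES day 0 replicate 1 or 3 or ES day 5 replicate 2 or 3 (adjusted p = 0.0762, 0.108, 0.154 and 0.0817).

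Dlk1 rose in the clones. It differed by 1.27 ± 0.17 between day 5 and day 0 in ST5 (adjusted p = 9.22e-06) and by 1.15 ± 0.17 in ST8 (adjusted p = 3.89e-05), and by 0.91 ± 0.13 there without replicate 2 of day 5. In ES cells the difference was 0.34 and did not pass (adjusted p = 0.129), though it did without ST8 day 5 replicate 2 (adjusted p = 0.0311). In all 3 lines every day 5 array lay above every day 0 array. Dio3 rose in ST5 by 0.64 ± 0.11 (adjusted p = 0.000128) and stood at 0.21 ± 0.11 in ST8 (adjusted p = 0.141), with 0.16 in ES cells. Rtl1 had 0.02 in ST5, 0.04 in ST8 and -0.15 in ES cells, and none passed.

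Of the 48, 5 fell and 2 rose in ST5, where 46.7% of all probe sets were called, 24.2% lower and 22.5% higher. In ST8 5 fell and 1 rose, where 40% were called, 19.3% lower and 20.7% higher. In ES cells 20 fell and 0 rose, where 38.1% were called, 19.4% lower and 18.6% higher. The ES count moved to 13, 12 and 13 without day 0 replicate 1 and day 5 replicates 2 and 3, and to 30 without day 5 replicate 1, and the ST5 count was 11 without ES day 5 replicate 1.

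Of the 42 microRNA probe sets, 17 fell in ES cells. Mir380 had 4.86, 4.17 and 4.24 at day 5 and 6.01, 5.55 and 6.03 at day 0 (-1.44 ± 0.16, adjusted p = 3.25e-06). Mir381 had 4.23, 3.57 and 3.16 at day 5 and 4.67, 4.90 and 5.09 at day 0 (-1.23 ± 0.18, adjusted p = 5.22e-05). Neither overlapped between the days. Rian fell by 0.92 ± 0.15 in ES cells (adjusted p = 0.000154) and the probe set shared with AF357355 by 0.75 ± 0.13, while Mir411, Mir539, Mir329 and Mir323 fell by 0.95, 0.90, 0.82 and 0.77. Without ES day 5 replicate 1 these stood at -1.35, -1.35, -1.09 and -0.90.

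In the clones the calls in microRNA genes were Mir341 (-0.47 ± 0.08), Mir540 (-0.29 ± 0.09) and Mir667 (-0.28 ± 0.10) in ST5 and Mir329 (-0.57 ± 0.16) and Mir341 (-0.22 ± 0.08) in ST8. The Mir540 and Mir667 calls were lost without ST5 day 0 replicate 2 (adjusted p = 0.0857 and 0.133) and the Mir341 call in ST8 without ST8 day 0 replicate 1 (adjusted p = 0.173), each among others. The probe set of AF357355 with Rian fell in both clones, with -0.71 ± 0.13 in ST5 and -0.70 ± 0.13 in ST8, and Rian itself fell by 0.60 ± 0.15 in ST8, with -0.35 in ST5 not passing.

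Whether the clones and ES cells responded unequally was tested as the difference between these responses. It passed for 5 of 48 probe sets, where 2.08% of all were called. Meg3 had -2.14 ± 0.12 (adjusted p = 8.73e-08), the larger fall in the clones on the log2 scale, from a lower level at day 0. Dlk1 had 0.87 ± 0.20 (adjusted p = 0.0394), the larger rise in the clones. Mir380, Mir381 and Mir376b had 1.20 ± 0.20, 1.20 ± 0.22 and 0.55 ± 0.09 (adjusted p = 0.00577, 0.012 and 0.00695). Rian had 0.44 ± 0.19, Rtl1 0.18 ± 0.13 and Dio3 0.26 ± 0.13, and none passed (adjusted p = 0.249, 0.495 and 0.345). For Mir380, Mir381 and Mir376b the level fell in ES cells, whereas in the clones it stood at 2.64 or less on every array of day 5 and at 2.71 or less on every array of day 0. Unequal change and the lower level of the clones at day 0 cannot be told apart for them.

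Leaving out ES day 5 replicate 1 gave 21 calls in the test of unequal responses, 20 of them positive, and leaving out ES day 0 replicate 3 gave 3. The Dlk1 call was the least firm. It was lost in 12 of the 18 fits that left out 1 array, with adjusted p up to 0.124, among them those without ES day 5 replicate 2 or ES day 0 replicate 3 (0.121). Mir381 missed the threshold without ES day 0 replicate 3 (adjusted p = 0.0506), and Meg3 passed in all 18.

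Fibroblast markers fell over the same days as Meg3, and this held in every line. Of 13 measured, 12 fell in ST5, 11 in ST8 and 11 in ES cells. Their mean level at day 5 was 5.15 to 5.26 in ST5, 5.21 to 5.40 in ST8 and 5.25 to 5.62 in ES cells, and at day 0 7.34 to 7.56 in ST5, 7.29 to 7.55 in ST8 and 7.11 to 7.39 in ES cells. Between clones and ES cells at day 0, 1 of the 13 was higher (Lum, 0.70 ± 0.16) and 0 lower. In ES cells, whose Meg3 level at day 0 was far above that of the clones, Meg3 differed by -0.29 between the days. The part of the fibroblast markers in the fall of Meg3 in the clones was not tested.

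**Figure D3:**
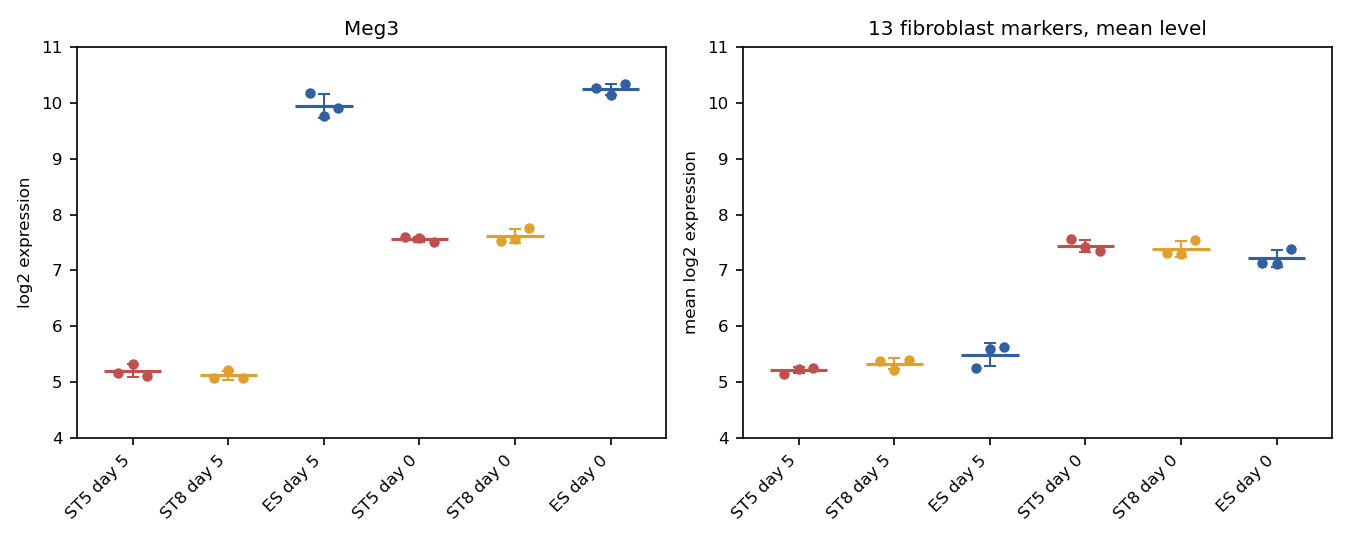
Log2 expression of Meg3 (left) and the mean log2 expression of 13 fibroblast markers (right) on the 18 unamplified arrays, with points for arrays, a line for the mean and bars for the SD (n = 3). The markers are lower at day 5 in ST5, ST8 and ES cells. Meg3 is lower at day 5 by over 2 units in ST5 and ST8 and by 0.29 in ES cells, which have the higher Meg3 level at both days.

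Many of the probe sets that followed Meg3 most closely were those of its own domain. Over the 18 unamplified arrays, the Pearson correlation with Meg3 was highest for AI506816 (0.961), Mir341 (0.95), Ndufs5 (0.928), Rian (0.912) and Mir382 (0.91) among 21788 probe sets. Members made up 3 of the 5 highest, 15 of the 20 highest and 24 of the 50 highest. The member Dlk1 had -0.692, at rank 21527. The arrays fall into groups by line and day, so these values describe the order of group levels. AI506816 and Ndufs5 are not genes of the domain and are named for their rank alone.

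Genes next to the domain on chromosome 12 were set beside it. Of 17 measured neighbours outside it, 0 were higher and 1 lower in the clones at day 0 (Ppp2r5c, a phosphatase subunit, -0.26 ± 0.05) and 1 was higher and 0 lower at day 5 (Wdr20, 0.26 ± 0.06). Of 251 microRNA genes elsewhere, 3 were higher and 0 lower at day 0, and 3 were higher and 19 lower at day 5, with the lowest at -0.54. The median of these microRNAs was 0.00 at day 0 and -0.08 at day 5. Of 17 microRNAs of other large clusters, limma called 0 at either day, and 1 at day 5 and 0 at day 0 had an unadjusted p under 0.05.

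Of 14 genes that process microRNAs, limma called 0 at day 0, and 2 had an unadjusted p under 0.05. At day 5 Ago1, a small RNA binding protein, was higher in the clones by 0.35 ± 0.06, and Ago4 and Lin28a, which blocks let-7 processing, were lower by -0.23 ± 0.07 and -0.22 ± 0.06. Of 20 genes that set or keep imprints, 6 were higher and 1 lower at day 0, where 2.44% of all probe sets were called higher and 2.77% lower. Dppa3, which protects maternal methylation in the early embryo, was higher in the clones by 0.58 ± 0.10 (7.87 in the clones and 7.28 in ES cells), and the Polycomb subunits Eed and Suz12 by 0.35 ± 0.07 and 0.32 ± 0.05. Zfp57 and its partner Trim28, named after their values were seen, were higher by 0.22 ± 0.06 and 0.24 ± 0.04. Tet2, which oxidises methylated cytosine, was lower by -0.63 ± 0.10 (adjusted p = 0.00162).

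Imprinted genes elsewhere went both ways. Over all probe sets, 2.44% were called higher and 2.77% lower at day 0, and 4.68% higher and 4.49% lower at day 5. Of 20 read from the paternal copy, 4 were higher and 3 lower in the clones at day 0, with Zdbf2 at -1.39 ± 0.13, Nnat at -0.98 ± 0.10 and Peg10 at 0.61 ± 0.13, and 2 were higher and 3 lower at day 5, with Nnat at -2.10 ± 0.10. Of 17 read from the maternal copy, 1 was higher and 2 lower at day 0 and 1 was higher and 1 lower at day 5. The widest of these maternal genes was Zim1 at day 5, at -0.52 ± 0.10.

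**Figure D4:**
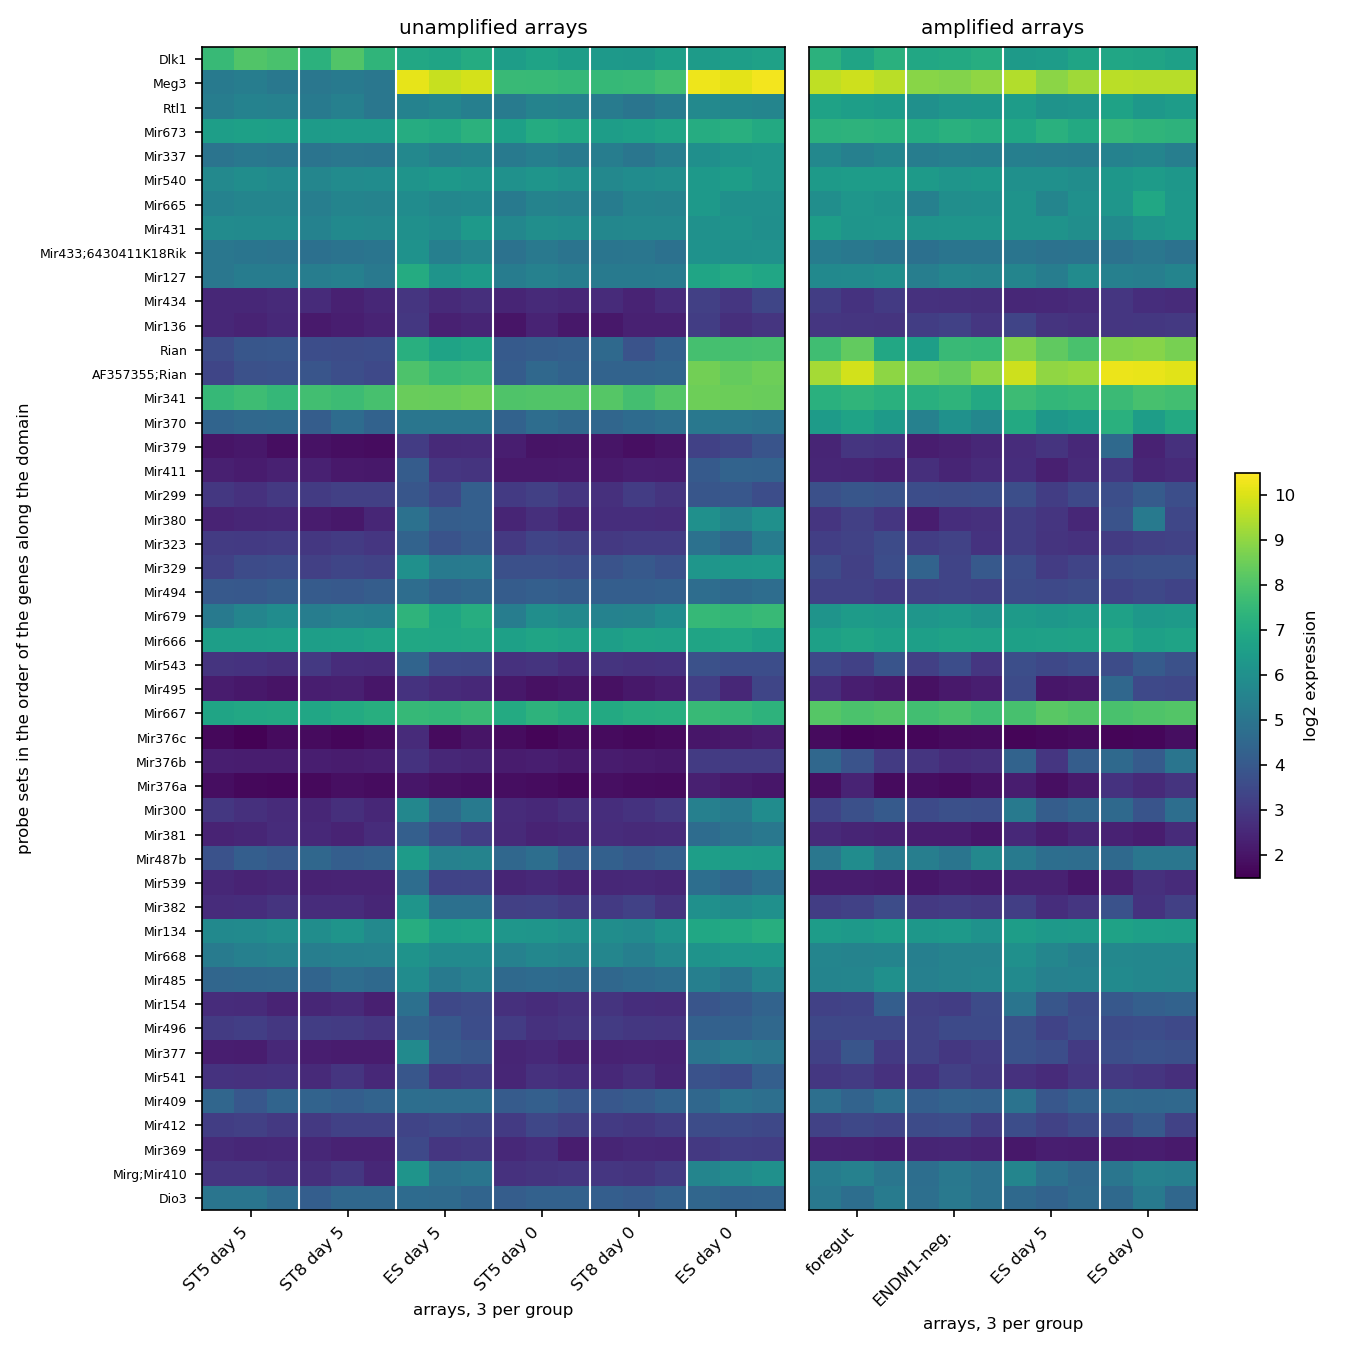
Log2 expression of the 48 probe sets (down the page, in the order of the genes along the domain) on every array, unamplified on the left and amplified on the right, with colour for the level on 1 scale. In the left panel ES cells stand out in many rows between Meg3 and Mirg with Mir410, but not in all, with Rtl1 and Mir666 among the exceptions. Levels should be compared within a panel alone.

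The amplified arrays hold ES cells and embryo cells, and no iPS clone. Among the amplified ES arrays of day 5, replicate 1 stood apart too. Its mean over the 7 definitive endoderm genes was 8.68, against 7.83 and 7.79 in replicates 2 and 3. The sample titles do not say whether amplified and unamplified ES arrays came from the same cultures, so they are not counted as separate evidence. Many microRNA probe sets were dim on them. Of 42, 10 lay above the array median in ES cells of day 0 and 10 at day 5. In foregut 12 did and in ENDM1-negative cells 10, so few calls need not mean little change. In amplified ES cells 8 of 48 were lower at day 5 than at day 0 and 0 higher, where 26.1% of all probe sets were called, 13.4% lower and 12.7% higher. Mir380 had 3.14, 2.89 and 2.49 at day 5 and 3.79, 5.19 and 3.41 at day 0 (-1.29 ± 0.36, adjusted p = 0.018). AF357355 with Rian had 9.83, 9.02 and 9.12 at day 5 and 10.22, 10.21 and 10.09 at day 0 (-0.85 ± 0.24, adjusted p = 0.0205). The days did not overlap for either, and day 0 replicate 2 set the top of Mir380, which differed by -0.76 ± 0.21 without that array (adjusted p = 0.0231). Rian's own probe set had 8.81, 8.30 and 7.90 at day 5 and 8.79, 8.86 and 8.66 at day 0, with overlap, and did not pass (-0.44 ± 0.35, adjusted p = 0.437). The call of the shared probe set was lost without day 0 replicate 1 or 2 or day 5 replicate 2 or 3 (adjusted p = 0.0592, 0.0586, 0.0803 and 0.0753).

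Meg3 differed by -0.36 ± 0.12 between the days (adjusted p = 0.0381), Mir376a by -0.67 ± 0.15, Mir495 by -1.24 ± 0.38, Mir673 by -0.38 ± 0.09, Mir540 by -0.34 ± 0.08 and Mir539 by -0.33 ± 0.11. Dlk1 had -0.20 ± 0.14 and did not pass, and neither did Rtl1 (-0.22) nor Dio3 (-0.24). The count was 5, 4 and 3 without day 0 replicate 2 and without day 5 replicates 2 and 3, and Meg3 passed without day 5 replicate 1 but missed without any other array of these 6 (adjusted p up to 0.141). It also missed without ENDM1-negative replicate 1 (0.052) or foregut replicate 1 (0.0509), which share the fit. Mir380 missed without day 5 replicate 3 (0.0697), and Mir495 without day 0 replicate 1 or day 5 replicate 2 or 3 (0.12, 0.109 and 0.109).

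In the embryo, Meg3 was higher in foregut endoderm than in the ENDM1-negative cells. It had 9.64, 9.80 and 9.57 in foregut, against 8.89, 8.82 and 8.99 in ENDM1-negative cells, with no overlap (0.77 ± 0.12, adjusted p = 0.00213). Mir370, which lies inside Rian, had 6.43, 6.72 and 6.42 in foregut, against 5.44, 6.07 and 5.66 in ENDM1-negative cells (0.80 ± 0.22, adjusted p = 0.0479). Its arrays did not overlap either, and these were the 2 calls of 48, where 7.51% of all probe sets were called, 3.3% higher and 4.2% lower.

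Dlk1 differed by 0.10 ± 0.14 between foregut and ENDM1-negative cells, Rtl1 by 0.38 ± 0.12 and Dio3 by 0.10 ± 0.18, and none passed. Rian had 7.75, 8.35 and 6.91 in foregut, against 6.55, 7.59 and 7.52 in ENDM1-negative cells, with overlap (0.45 ± 0.35). The probe set of AF357355 with Rian had 9.27, 9.87 and 8.97 in foregut, against 8.62, 8.41 and 8.94 in ENDM1-negative cells, without overlap but short of the threshold (0.71 ± 0.24, adjusted p = 0.0997). The Mir370 call was lost without any of foregut replicates 1, 2 and 3 or ENDM1-negative replicates 1 and 3 (adjusted p up to 0.156), and without ES day 5 replicate 3 or ES day 0 replicate 3, which share the fit. Endothelial markers averaged 5.04 to 5.21 in foregut, against 6.36 to 6.88 in ENDM1-negative cells, visceral endoderm markers 7.81 to 9.24 against 5.77 to 6.55, and definitive endoderm markers 7.21 to 7.45 against 6.14 to 6.29. Neural markers averaged 5.36 to 5.47 in foregut, against 6.17 to 6.48 in ENDM1-negative cells, and surface ectoderm markers 5.36 to 5.41 against 6.14 to 6.17. Blood markers averaged 6.92 to 7.59 in foregut, against 6.15 to 7.28, and mesoderm and heart markers 5.63 to 5.76, against 5.51 to 5.75. Their part in the difference of Meg3 was not tested.

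Against ES-derived endoderm of day 5, foregut had 4 of 48 higher and 2 lower, where 23.7% of all probe sets were called, 13.7% higher and 9.95% lower. Dlk1 had 7.29, 6.75 and 7.20 in foregut, against 6.40, 6.48 and 6.74 in ES cells (0.54 ± 0.14, adjusted p = 0.0139). Meg3 had 9.64, 9.80 and 9.57 in foregut, against 9.45, 8.93 and 9.21 in ES cells (0.47 ± 0.12, adjusted p = 0.0118). For both the foregut arrays lay above those of ES cells, by 0.01 at the closest for Dlk1.

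Mir540 and Mir434 were higher in foregut by 0.46 ± 0.08 and 0.46 ± 0.10, and Mir300 and Mir494 lower by -0.90 ± 0.28 and -0.34 ± 0.07. Rtl1 (0.28 ± 0.12), Dio3 (0.51 ± 0.18, adjusted p = 0.0562) and Rian (-0.67) did not pass. The count was 10 without ES day 5 replicate 1, and the Dlk1 call was lost without foregut replicate 1 or 3 (adjusted p = 0.0624 and 0.0564). Strain, RNA kit and origin differ together between embryo and ES cells and cannot be told apart.

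The ENDM1-negative cells differed from ES cells of day 5 in 8 of 48, with 3 higher and 5 lower, where 25.8% of all probe sets were called, 15.7% higher and 10.1% lower. Rian was lower by -1.11 ± 0.35 (adjusted p = 0.0367), Mir300 by -0.96 ± 0.28, Mir370 by -0.84 ± 0.22, Mir341 by -0.40 ± 0.11 and Mir494 by -0.24 ± 0.07, and Dlk1 was higher by 0.44 ± 0.14, Mir540 by 0.30 ± 0.08 and Mir369 by 0.24 ± 0.07. Meg3 had 8.89, 8.82 and 8.99 in ENDM1-negative cells, against 9.45, 8.93 and 9.21 in ES cells, and did not pass (-0.30 ± 0.12, adjusted p = 0.08), and neither did Rtl1 (-0.10 ± 0.12) nor Dio3 (0.41 ± 0.18). Without ES day 5 replicate 1 or ENDM1-negative replicate 1 the count was 3, without ENDM1-negative replicate 3 it was 5, and the Rian call was lost without either of the first 2 of these (adjusted p = 0.116 and 0.143). These comparisons share the ES arrays with those of foregut.

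**Figure D5:**
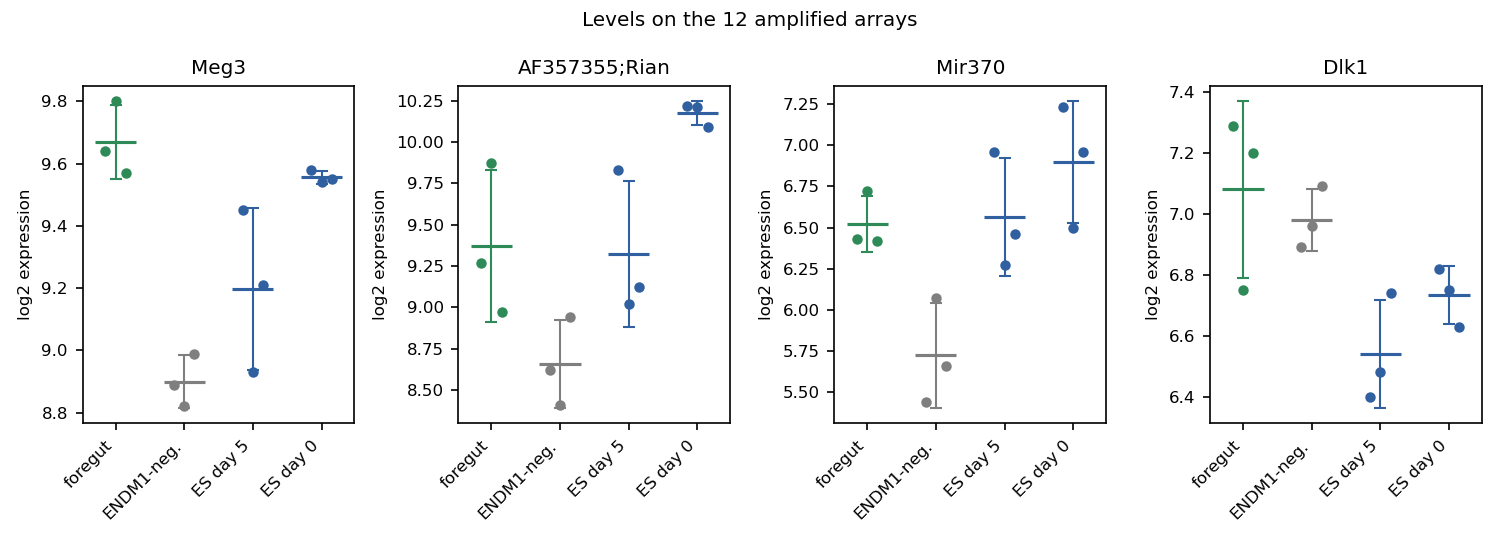
Log2 expression of Meg3, the probe set of AF357355 with Rian, Mir370 and Dlk1 on the 12 amplified arrays, with points for arrays, a line for the mean and bars for the SD (n = 3), each panel on an axis of its own. Foregut lies above the ENDM1-negative cells for Meg3 and Mir370, with no overlap between these groups in either panel.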

How the data were processed

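RNA of 30 samples was measured on Affymetrix mouse arrays, 18 labelled without amplification and 12 after NuGEN amplification. The authors deposited log2 values, 1 for each probe set, made with RMA according to the submitters' processing notes. The RMA version, and whether both labellings were processed together, are not given in the sources used here. No scale was changed. Probe sets were named from GEO's platform annotation, and 23410 carry a symbol. Gene order, sequences and coordinates come from RefSeq (GRCm38.p6).

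Group means were fitted to the 18 unamplified arrays (6 groups) and to the 12 amplified arrays (4 groups) with limma 3.58.1 in R 4.3.3 (package data.table at 1.17.8), moderated by eBayes, and p-values were adjusted by Benjamini-Hochberg over the 23410 probe sets, with 0.05 as threshold. The number of arrays limits the precision. Each group has 3 biological replicates, and what separates them (culture, clone passage or litter) is not stated further, so p-values measure the spread between these samples. Replicate numbers recur across groups, but samples of the same number did not deviate together, with a median correlation of 0.02 over the unamplified arrays and 0 over the amplified ones, so no block was used.

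The members and gene lists were chosen with earlier results of these data known. Dlk1, Meg3, Rtl1, Rian and Dio3 were named in every comparison, and of the microRNA genes up to 6 called ones with the widest rise and fall. From each list up to 4 called genes were named, and 5 probe sets by their correlation with Meg3. Other microRNA genes were named for their position or seed, or after their values were seen.

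The fits were tested on simulated data with 50 probe sets changed at each size. In the unamplified design (ES day 5 minus day 0, 23410 probe sets) 52%, 94% and 100% of changes by 0.5, 1 and 2 were called, and 7.98% of calls were false. In the amplified design (foregut minus ENDM1-negative) these shares were 44%, 88% and 100%, and 6.74%. All other simulated probe sets were left unchanged, with independent noise. In the real data 38.1% of probe sets were called in the ES comparison and 7.51% in that of foregut. The adjustment is less strict where more probe sets change, so the simulated shares need not hold for the real comparisons. Alternatives were a common median, further quantile normalization, dim probe sets left out, all probe sets or 1 per gene, an intensity trend, other sets of arrays in the fit, the replicate block and each array left out.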

Additional observations from a re-analysis of the deposited data

Results flagged for a closer look

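For 5 of the 48 probe sets the change over differentiation differed between iPS clones and ES cells, by limma's test of the difference itself. Meg3 had -2.14 ± 0.12 (SE, adjusted p = 8.73e-08), with the larger fall in the clones on the log2 scale. The clones began from a lower level, at 7.50 to 7.76 at day 0 against 10.14 to 10.33 in ES cells. Dlk1 had 0.87 ± 0.20 (adjusted p = 0.0394), with the larger rise in the clones.

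Mir380, Mir381 and Mir376b had 1.20 ± 0.20 (adjusted p = 0.00577), 1.20 ± 0.22 (adjusted p = 0.012) and 0.55 ± 0.09 (adjusted p = 0.00695), with the larger fall in ES cells. In the clones these probe sets stood at 2.71 or less on every array of both days, so an unequal change cannot be told apart from their lower level at day 0.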

How the results depend on the processing

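Named differences that passed, in the main fit or under an alternative, kept their sign between the main fit and that alternative. Those that passed in neither could change it. Rtl1 in ST8 between the days had 0.04 with all arrays and -0.06 without ST8 day 5 replicate 2. Of 4016 values, 3833 kept their side of the threshold, 144 lost it and 39 gained it. Of 407 counts of members called, 359 stayed within 1.5 times the count reported and 48 did not. With dim probe sets left out, 9 members were tested on unamplified arrays and 15 on amplified ones, so counts could only be small: iPS clones minus ES cells had 9 at day 5 and 7 at day 0, ST5 minus ES 9 and 4, ST8 minus ES 8 and 7, ST8 minus ST5 at day 5 had 0, day 5 minus day 0 had 3 in ST8, 2 in ES and 5 in amplified ES cells, and the unequal responses were 2. With only the groups of a comparison in the fit, day 5 minus day 0 had 12 in ST5, 13 in ES and 4 in amplified ES cells, ST8 minus ES at day 5 had 5 and ST8 minus ST5 at day 5 had 0. With 1 fit of all 30 arrays, ENDM1-negative cells minus ES had 13 and foregut minus ENDM1-negative 5. With a common median, ST5 day 5 minus day 0 had 13 and foregut minus ES 10, which was 11 after further quantile normalization. With all probe sets of the table tested, amplified ES cells had 5 and foregut minus ENDM1-negative 1.

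Leaving out each array in turn, iPS clones minus ES cells had 35 to 42 at day 5 and 37 to 44 at day 0, ST5 minus ES 37 to 42 and 33 to 39, ST8 minus ES 29 to 37 and 35 to 43, and ST8 minus ST5 0 to 4 and 0. Day 5 minus day 0 had 5 to 11 in ST5, 5 to 8 in ST8, 12 to 30 in ES and 3 to 11 in amplified ES cells, and 3 to 21 responded unequally. Foregut minus ENDM1-negative had 1 to 3, foregut minus ES 4 to 10, and ENDM1-negative minus ES 3 to 10.

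With the replicate number as a block, foregut minus ENDM1-negative had 1 call, with Mir370 at an adjusted p of 0.0746. Under the block Meg3 in amplified ES cells missed the threshold (0.0526), Dlk1 in ST8 minus ES at day 5 passed it (0.0489), and no other named call changed; iPS clones minus ES cells had 40 at day 5 and 43 at day 0. Same-numbered samples correlated between -0.64 and 0.48 on unamplified and -0.07 and 0.11 on amplified arrays. Apart from the settings built from fewer members or arrays, the cause of these moves was not tested. Signal limits the microRNA genes: at day 0, 18 of 42 lay above the array median in unamplified ES cells and 10 in amplified ones. Background was not measured apart.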
